A study of Mus musculus with 24 samples.

Results

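The transcripts of the mitochondrial genome were described in the liver and in iWAT, the subcutaneous fat depot of the groin (inguinal white adipose tissue), of mice with and without the mitochondrial magnesium channel Mrs2. Its members are the 37 rows on chromosome MT among the 54532 genes of the table: 13 mRNAs, 2 rRNAs and 22 tRNAs. All 13 mRNAs and both rRNAs passed the filter on low values (a mean of at least 0.5 FPKM over the 12 libraries of a tissue), as did 17 of the 22 tRNAs in either tissue. The 5 tRNAs below it, mt-Tf, mt-Tv, mt-Ts1, mt-Td and mt-Tk, were the same in liver and iWAT, and mt-Tf and mt-Td had no read in any of the 24 libraries. A count of 0 allows up to 0.000168% to 0.000753% of a library's mitochondrial reads, from 3 counts, for counting error only.

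The mitochondrial genome is a small circle that is read from both strands into long precursors. Most mRNAs and both rRNAs in these precursors are separated by tRNAs, and cutting at the tRNAs frees them. The mRNAs code for subunits of the respiratory chain and ATP synthase: mt-Nd1 to mt-Nd6 and mt-Nd4l for complex I, mt-Cytb for complex III, mt-Co1 to mt-Co3 for complex IV, and mt-Atp6 and mt-Atp8 for complex V. All other subunits, all of complex II included, come from nuclear genes. In adipose tissue, high respiratory chain gene expression is a known trait of brown and beige fat cells, which burn fuel for heat.

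WT and Mrs2 KO mice ate chow or a Western diet (WD), an obesogenic diet, for 52 weeks from 13 weeks of age, with 3 mice in each of the 8 groups (both genotypes on both diets, each in liver and iWAT). RNA came from 50 mg of powdered whole liver or 100 mg of powdered whole iWAT without its lymph nodes. The sources used here do not say how the KO was made, nor the strain or sex of the mice. Poly-T beads captured the RNA, so mitochondrial RNAs were sampled only as far as they carry a tail. In whole tissue, fewer cells of a type and less RNA per cell cannot be told apart.

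Recovered reads numbered 14.7 to 19.5 M per library in liver and 15.4 to 20.4 M in iWAT. Mrs2 was lower in every KO library than in every WT library on chow in liver and on either diet in iWAT (iWAT, WD: 1.60 to 1.95 against 2.74 to 5.01 FPKM). In livers on WD the libraries overlapped, with 4.10, 5.21 and 4.21 FPKM in those labelled KO and 5.10, 4.10 and 5.11 in those labelled WT, so the genotype of these livers is given as labelled throughout. Albumin (Alb, hepatocytes) was at 15165 to 57310 FPKM in liver and adiponectin (Adipoq, fat cells) at 826 to 1458 FPKM in iWAT. Skeletal muscle genes, 12 in number, summed to 4552 FPKM in WT WD iWAT 1 and 1346 FPKM in KO WD iWAT 1, against 4.40 to 336 FPKM in the other iWAT libraries. In liver they summed to 187 FPKM in WT chow liver 3 and 84.2 FPKM in KO WD liver 2, against at most 27 FPKM in the other livers. Pancreatic acinar genes summed to 1644 FPKM in KO chow liver 1 and 1341 FPKM in WT WD liver 2, against at most 24.5 FPKM in the other livers. Lymphocyte genes summed to 267 FPKM in WT chow iWAT 3, 217 FPKM in KO chow iWAT 3 and 139 FPKM in KO WD iWAT 2, against 7.77 to 80.7 FPKM in the other iWAT libraries. Counts of called members that change without such libraries are given with and without them.

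Part of the mouse mitochondrial genome also lies in the nucleus, on chromosome 1, and this bears on which members can be counted. There (GRCm38), 7 annotated pseudogenes matched mitochondrial mRNAs and lay in mitochondrial order: Gm29216 (mt-Co1, from base 1054), Gm28661 (mt-Co2), Gm10925 (mt-Atp6), Gm28437 (mt-Co3), Gm28438 (mt-Nd3), Gm10222 (mt-Nd4l) and Gm28439 (mt-Nd4, its first 876 bases). Together they span mitochondrial bases 6381 to 11042, or 4662 bases, and 5 of the 6 gaps between neighbours have the same length in both places. Over the bases compared, 5 of the 7 were identical to the mitochondrial gene. The pairs shown here, read from the GENCODE vM21 transcripts, are 1 identical pair and the 2 pairs that differ, with capitals at the bases that differ.
mt-Co2: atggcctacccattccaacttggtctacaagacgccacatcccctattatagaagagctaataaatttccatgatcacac
Gm28661: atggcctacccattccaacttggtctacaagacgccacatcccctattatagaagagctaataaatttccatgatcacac
mt-Nd3: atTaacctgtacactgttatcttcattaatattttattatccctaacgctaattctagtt
Gm28438: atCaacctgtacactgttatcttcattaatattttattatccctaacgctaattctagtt
mt-Co1: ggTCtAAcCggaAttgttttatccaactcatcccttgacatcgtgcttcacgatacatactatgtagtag
Gm29216: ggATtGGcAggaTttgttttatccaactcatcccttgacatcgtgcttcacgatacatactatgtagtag

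On GRCm38, mt-Co2 lies at MT:7013-7696, mt-Nd3 at MT:9459-9806 and mt-Co1 at MT:5328-6872, all on the plus strand. The pseudogenes lie on the minus strand of chromosome 1: Gm28661 at 24614885 to 24615565, Gm28438 at 24612775 to 24613119 and Gm29216 at 24615706 to 24616197. The first 80 bases of mt-Co2 are shown, the first 60 of mt-Nd3, and bases 1054 to 1123 of mt-Co1, counted from the first base of each gene. The only difference in mt-Nd3 was T3C. The 6 in mt-Co1, T1056A, C1057T, A1059G, A1060G, C1062A and A1066T, all lay at the start of the copy and were followed by 479 identical bases. A read that falls within an identical stretch cannot be placed in 1 of the 2 sites by its sequence. Of the mRNAs, 6 lie inside the copied stretch (mt-Co2, mt-Atp8, mt-Atp6, mt-Co3, mt-Nd3 and mt-Nd4l), mt-Co1 and mt-Nd4 lie partly in it, and 5 lie outside. For mt-Co1, 23.6% of its 150-base windows also occur in another annotated transcript. The value for mt-Nd4 was 59.2%, and for all 5 mRNAs outside it was 0%. The piece of chromosome 1 that would match mt-Atp8 holds no annotated transcript and was not compared.

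Levels fell into 2 ranges along the genome, and the low range coincided with the copied stretch. The complex IV mRNA mt-Co1 was highest in either tissue, at 7919 to 15463 FPKM in liver (median 12304) and 4992 to 22699 FPKM in iWAT (median 9337). The complex III mRNA mt-Cytb came next, at 41.6% to 69.5% of mt-Co1 within a library. The complex I mRNA mt-Nd1 followed at 31.7% to 59.6% and mt-Nd2 at 22.2% to 46.8%. In contrast, mt-Co2, which codes for another core subunit of complex IV, had a median of 56.8 FPKM in liver and 54.2 FPKM in iWAT. The third complex IV mRNA, mt-Co3, had medians of 47.7 and 43.2 FPKM, and mt-Atp8 of complex V had the lowest, 4.81 and 4.09 FPKM. In all 24 libraries the highest of the 6 mRNAs inside the stretch was below the lowest of the other 7, by 6.50 to 41.3 times. The pseudogene rows held 1.86 to 145 FPKM each. Summed with its pseudogene row, mt-Co2 reached 4.28% of the FPKM of mt-Nd4 in liver (median of 12 libraries) and 4.97% in iWAT. The sources used here do not say how reads that fit both sites were counted. The values of these 6 mRNAs are given here and below as counted. Their differences in level from other mRNAs, mt-Nd4 included, which lies partly in the stretch, are differences in counted values only. The part of the counting in them was not tested.

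**Figure D1:**
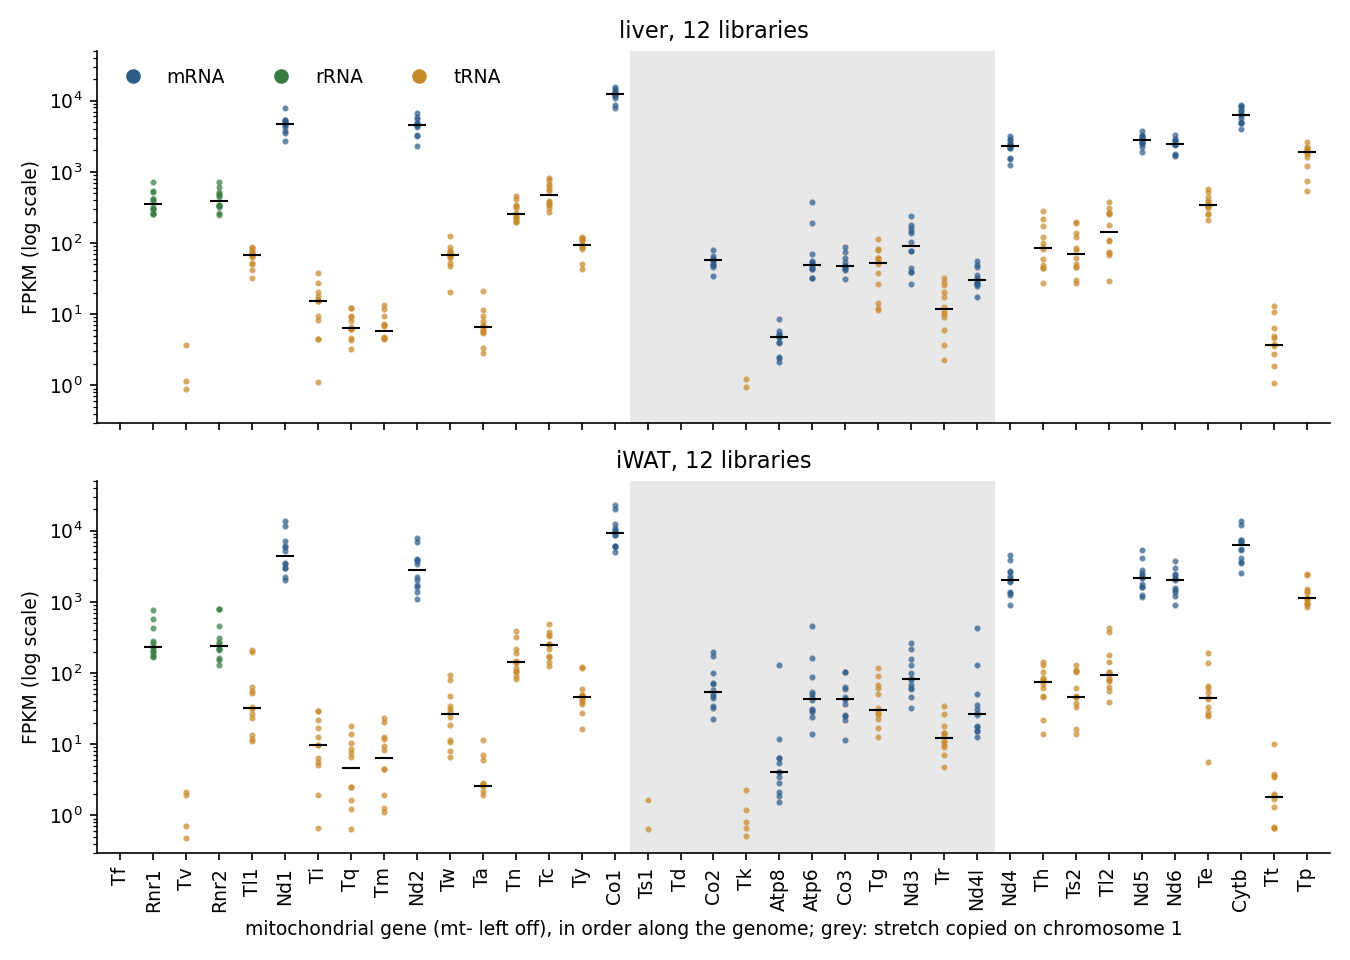
FPKM on a log axis (y) of the 37 members in their order along the mitochondrial genome (x), for 12 liver libraries (top) and 12 iWAT libraries (bottom); each point is a library, black bars are medians, colours mark mRNA, rRNA and tRNA, values of 0 are not drawn, and grey marks genes that lie inside the stretch copied on chromosome 1 (mt-Co1 and mt-Nd4, at its edges, lie partly in it). The mRNAs in grey lie below all mRNAs outside it in each library, with medians from 4.81 to 90.6 FPKM in liver.

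The annotated 3′ ends of the mRNAs show whether a whole stop codon is encoded. Neither tails nor translation were measured. Where the encoded RNA ends in a bare T (U in the RNA), adenines added after it complete the stop codon. The last 24 bases are shown for 5 abundant or partly counted members, with the stop codon, or its encoded part, in capitals.
mt-Co1: ccaacctatgtaaaagtaaaaTAA
mt-Nd1: gcgggagtaccaccatacataTAG
mt-Co3: tctccatttattgatgaggatctT
mt-Nd4: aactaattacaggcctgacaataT
mt-Cytb: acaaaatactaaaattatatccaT

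Of these, mt-Co1 and mt-Nd1 encode a whole stop codon, whereas mt-Co3, mt-Nd4 and mt-Cytb encode 1 base of it. All the mRNAs not shown here are annotated with a whole stop codon. Neighbouring members also share bases: mt-Atp8 and mt-Atp6 overlap by 43 bases, mt-Nd4l and mt-Nd4 by 7, and mt-Nd5 and mt-Nd6 by 14. The last pair lies on opposite strands. In mammals mt-Nd5 RNA is known to run on opposite mt-Nd6, and mt-Nd6 RNA to carry little or no tail. Since no source used here names the strand setting of the counting, reads of mt-Nd6 (1685 to 3232 FPKM in liver, on a level with mt-Nd5 at 1891 to 3691) cannot be told apart from reads opposite to it.

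The mRNAs made up at least 95.9% of the mitochondrial reads of each library. The rRNAs, which form the mitochondrial ribosome and carry short tails or none, made up 1.23% to 3.6%: mt-Rnr1 (12S) was at 258 to 710 FPKM in liver and 168 to 766 FPKM in iWAT, and mt-Rnr2 (16S) at 246 to 724 and 129 to 801 FPKM. The tRNAs made up 0.291% to 0.628%. Each tRNA is shorter than 1 read of 150 bases, so these counts can hold reads of longer RNAs that cover a tRNA, which was not tested. The tRNA for proline, mt-Tp, was the highest, at 533 to 2607 FPKM in liver and 842 to 2491 FPKM in iWAT. The next in liver were the tRNAs for cysteine (mt-Tc, mean 504 FPKM), glutamate (mt-Te, 361) and asparagine (mt-Tn, 287). The proline and glutamate tRNA genes, both encoded on the minus strand (MT:15356-15422 and MT:14071-14139), are shown. The first had the highest level of the tRNAs, and the second is set between the tissues below.
mt-Tp: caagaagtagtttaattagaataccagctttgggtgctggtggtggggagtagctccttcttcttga
mt-Te: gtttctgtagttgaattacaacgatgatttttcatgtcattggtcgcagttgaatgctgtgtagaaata

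The glutamate tRNA was the only member whose share of the mitochondrial reads did not overlap between the tissues. It took 0.0335% to 0.0821% of them in the 12 livers and 0.00174% to 0.0142% in the 12 iWAT libraries, with medians 5.56 times apart. This difference was not tested, and mt-Te was singled out in iWAT after its values were seen. All 13 mRNAs and both rRNAs overlapped between the tissues in this share, among them mt-Co1 with medians of 40.2% in liver and 38.7% in iWAT.

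As a whole, mitochondrial transcripts took more of the reads in KO iWAT than in WT iWAT on either diet. On WD their share was 11.6%, 10.3% and 5.27% in the 3 KO libraries and 3.42%, 3.29% and 2.49% in the 3 WT libraries. The means were 9.06% ± 3.34 (SD, n = 3) and 3.07% ± 0.504, and the groups did not overlap. On chow the share was 6.56%, 5.94% and 5.85% in KO and 4.63%, 4.47% and 3.54% in WT, again without overlap. In liver the shares were closer: 4.23% ± 0.564 in KO and 3.79% ± 0.217 in WT on chow, which overlapped, and 3.94%, 3.87% and 4.39% in KO against 3.08%, 3.78% and 3.45% in WT on WD, which did not. The widest 95% Wilson interval of any share was 0.032 percentage points, for counting error only, so spread between mice and not depth sets the precision. No test was run on the shares, which sum the members.

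**Figure D2:**
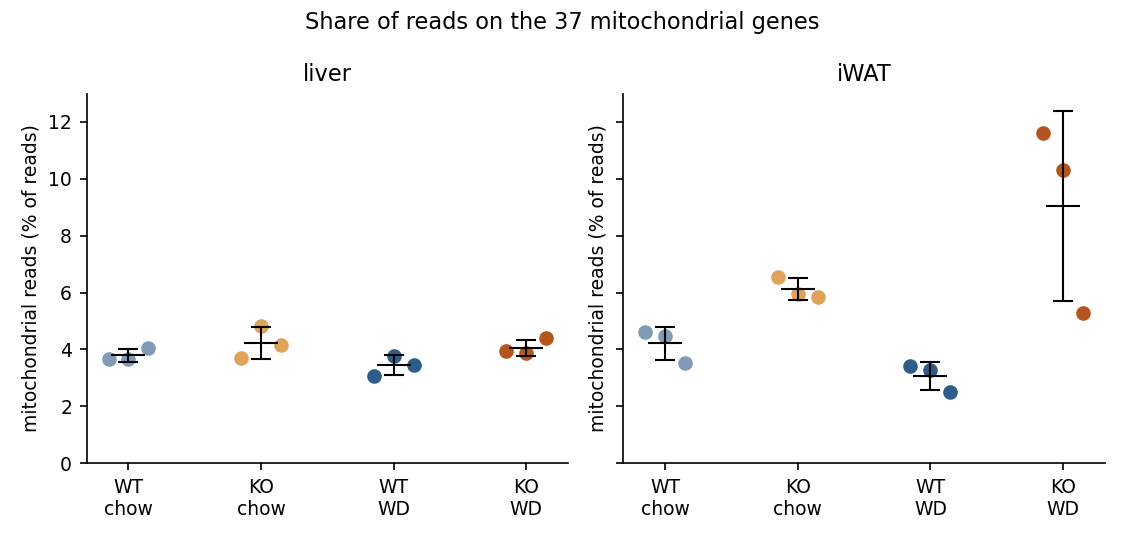
Reads on the 37 mitochondrial genes as a percentage of all recovered gene reads (y) in liver (left) and iWAT (right) by group (x); points are libraries, bars the mean ± SD of 3. KO iWAT lies above WT iWAT on either diet, and 1 of the 3 KO WD libraries (5.27%) lies apart from the other 2 (10.3% and 11.6%).

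Of the 12 comparisons made, KO against WT in iWAT on WD called the most members. All 32 members tested were higher in KO, by a median of 1.82 on the log2 scale, where the median of all 14685 genes tested was -0.02. Of the 32, 19 passed limma's test (adjusted p under 0.05, called from here on): 9 mRNAs, 10 tRNAs and no rRNA. Over all genes 3.20% were called higher. Every KO library was above every WT library for 26 of the 32, against 12.7% of all genes tested.

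Of the 7 complex I mRNAs, 4 rose. For mt-Nd2 (MT:3914-4951), a membrane subunit of the proton-pumping arm, the KO libraries stood at 7979, 6865 and 3924 FPKM and the WT libraries at 1597, 1721 and 1106, 2.05 ± 0.30 higher in KO on the log2 scale (± SE; limma adjusted p = 0.0162). For mt-Nd1 (MT:2751-3707), which lies where the arms of complex I join, they stood at 13532, 11732 and 5802 against 3019, 2960 and 2036 FPKM (1.89 ± 0.34, limma adjusted p = 0.0226). In both genes KO replicate 3 was the lowest KO library and still lay above all WT libraries. The proton-pumping subunit mt-Nd4 stood at 4494, 3852 and 2327 FPKM in KO and 1225, 1363 and 899 FPKM in WT (1.58 ± 0.28, limma adjusted p = 0.0226), and the small subunit mt-Nd3, inside the copied stretch, rose by 1.91 ± 0.39. The other 3 complex I mRNAs missed the threshold: mt-Nd5 had a log2 fold change of 1.37 ± 0.34 (limma adjusted p = 0.0529), mt-Nd6 1.25 ± 0.32 (0.0557) and mt-Nd4l 2.93 ± 0.73 (0.0537). Their groups did not overlap either.

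The complex III mRNA mt-Cytb (MT:14145-15288) rose from 4050, 3561 and 2551 FPKM in WT to 13748, 11831 and 6910 FPKM in KO (1.64 ± 0.30, limma adjusted p = 0.0232). Among complex IV mRNAs, mt-Co1, the catalytic subunit, rose from 6000, 5843 and 4992 to 22699, 19849 and 9943 FPKM (1.56 ± 0.31, limma adjusted p = 0.0272). The other core subunits, counted at far lower levels, rose by 2.18 ± 0.36 (mt-Co2, limma adjusted p = 0.0208) and 2.03 ± 0.37 (mt-Co3, 0.0230). The ATP synthase mRNA mt-Atp6, a subunit of the proton channel, was at 165, 455 and 46.3 FPKM in KO and 30.5, 24.5 and 13.8 FPKM in WT (2.75 ± 0.66, limma adjusted p = 0.0485). Its neighbour mt-Atp8, at 12, 129 and 3.43 FPKM against 4.07, 2.15 and 1.57, overlapped between the groups and was not called (2.50 ± 0.94, limma adjusted p = 0.184). The rRNAs were higher by less and were not called: mt-Rnr1 by 0.97 ± 0.43 (limma adjusted p = 0.269) and mt-Rnr2 by 1.31 ± 0.39 (0.0993).

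Of the tRNAs called, those for glutamine and methionine had the largest log2 fold changes. For mt-Tq the KO libraries held 25, 20 and 14 reads and the WT libraries 0, 2 and 1 (log2 fold change 3.18 ± 0.32 on the log2(FPKM + 1) scale, limma adjusted p = 0.00434). For mt-Tm the reads were 31, 29 and 19 against 2, 3 and 0 (3.34 ± 0.46, limma adjusted p = 0.0131). These calls rest on few reads. The other 8 called, mt-Tl1, mt-Tl2, mt-Tw, mt-Tg, mt-Tr, mt-Ti, mt-Ta and mt-Ts2, had log2 fold changes from 1.52 (mt-Tr) to 2.57 (mt-Ti). The most abundant tRNA, mt-Tp, was at 2491, 2344 and 1327 FPKM in KO and 928, 1057 and 974 in WT and missed the threshold (1.01 ± 0.29, limma adjusted p = 0.0846). So did mt-Tc (1.01 ± 0.31) and mt-Tn (1.2 ± 0.35).

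How many members passed depended on the libraries in the fit. Without KO WD replicate 1 or without replicate 2, 1 member was called in either case. Without WT WD replicates 1, 2 and 3 in turn, 12, 7 and 2 were called, and without KO WD replicate 3, 28. The median over the members stayed at 1.57 to 2.23 in these 6 fits and all 32 members stayed above 0. Without the libraries high in skeletal muscle genes 1 member was called, without the 3 high in lymphocyte genes, KO WD replicate 2 among them, 0, and 0 where only the 6 libraries compared were fitted. In these 3 fits only 4, 15 and 16 genes of all those tested were called.

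Markers of heat-producing fat cells moved with these groups. The 8 brown and beige adipocyte markers summed to 1815, 1932 and 586 FPKM in KO WD iWAT and 163, 152 and 21.7 FPKM in WT WD iWAT, and to 624 to 889 against 138 to 149 FPKM on chow. None was at 0 throughout a group of iWAT. Of the 8, 6 were called higher in KO on WD, beside 3.20% of all genes. Among them were Cidea, a lipid droplet protein of such cells (4.12 ± 0.61), and Elovl3, a fatty acid elongase (5.28 ± 0.74). Ucp1, which uncouples respiration in brown fat, was at 651, 699 and 129 FPKM in KO and 27.5, 28.0 and 0.168 FPKM in WT. KO WD replicate 3 was thus the lowest KO library in these markers and in its mitochondrial share alike. General adipocyte markers, by contrast, summed to 8422 to 9578 FPKM in KO and 9031 to 9829 FPKM in WT on WD, and none of the 8 was called. Skeletal muscle genes were high in replicate 1 of either genotype on WD, as given above, and none was at 0 throughout a group of iWAT. Red cell genes, 5 in number, summed to 691, 766 and 1805 FPKM in KO and 7726, 3256 and 1799 FPKM in WT on WD, and 1 of them, Alas2, the first enzyme of heme synthesis in red cells, fell by 1.85 ± 0.43 (limma adjusted p = 0.0447). The 8 lymphocyte markers summed to 43.7, 139 and 7.77 FPKM in KO and 33.2, 10.6 and 8.96 FPKM in WT. All 8 had values above 0 on the log2 scale (median 0.96), and none was called. Neither list had a gene at 0 throughout a group of iWAT. The part of brown and beige adipocytes, muscle, blood or lymphocytes in the result was not tested.

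On chow, no member was called between KO and WT iWAT, and neither was any other gene (0% of 14685 genes; 830 had an unadjusted p under 0.05, edgeR called 0 and DESeq2 68). All 32 members were higher in KO, with a median of 0.84, and 12 had an unadjusted p under 0.05. In 22 of them each KO library was above each WT library, against 5.86% of all genes tested. Counts of members, here and in the other comparisons, come from the same mice and are no test of their own. For mt-Nd2 the KO libraries stood at 3785, 3887 and 3412 FPKM and the WT libraries at 2195, 2048 and 1358, 1.01 ± 0.30 higher in KO on the log2 scale (limma adjusted p = 0.752). For mt-Nd1 they stood at 7051, 6012 and 5222 against 3530, 3370 and 2247 FPKM (1.02 ± 0.34, limma adjusted p = 0.779), and for mt-Rnr2 at 463, 309 and 275 against 162, 153 and 129 FPKM (1.2 ± 0.39, 0.779). The other mRNAs ranged from 0.18 ± 0.32 (mt-Nd6) to 0.89 ± 0.66 (mt-Atp6). The smallest p among the members was that of the tryptophan tRNA mt-Tw (1.99 ± 0.40, limma adjusted p = 0.432). DESeq2 on the recovered reads called 2 members and edgeR 0.

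The change was larger on WD than on chow for 30 of the 32 members, by a median of 1.01, but no difference between the diets was called (limma's interaction term, smallest adjusted p among the members 0.576; 0% of all genes called, 1011 of them with an unadjusted p under 0.05, edgeR 0 and DESeq2 51). Unadjusted, 11 members had a p under 0.05 for this term. The difference was 1.03 ± 0.43 for mt-Nd2 and 1.55 ± 0.51 for mt-Co2. Averaged over the diets, 17 of the 32 members were called higher in KO iWAT, against 3.02% of all genes: 8 mRNAs, mt-Rnr2 and 8 tRNAs. The called mRNAs were mt-Nd1, mt-Nd2, mt-Nd3, mt-Nd4, mt-Cytb, mt-Co1, mt-Co2 and mt-Co3, with log2 fold changes from 1.05 ± 0.22 (mt-Co1) to 1.53 ± 0.21 (mt-Nd2). For mt-Rnr2 it was 1.26 ± 0.28 (limma adjusted p = 0.0393). Without 1 library, 4 to 27 members were called. Leaving out the libraries high in skeletal muscle genes lost 16 of the 17 calls, and leaving out those high in lymphocyte genes lost all 17.

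**Figure D3:**
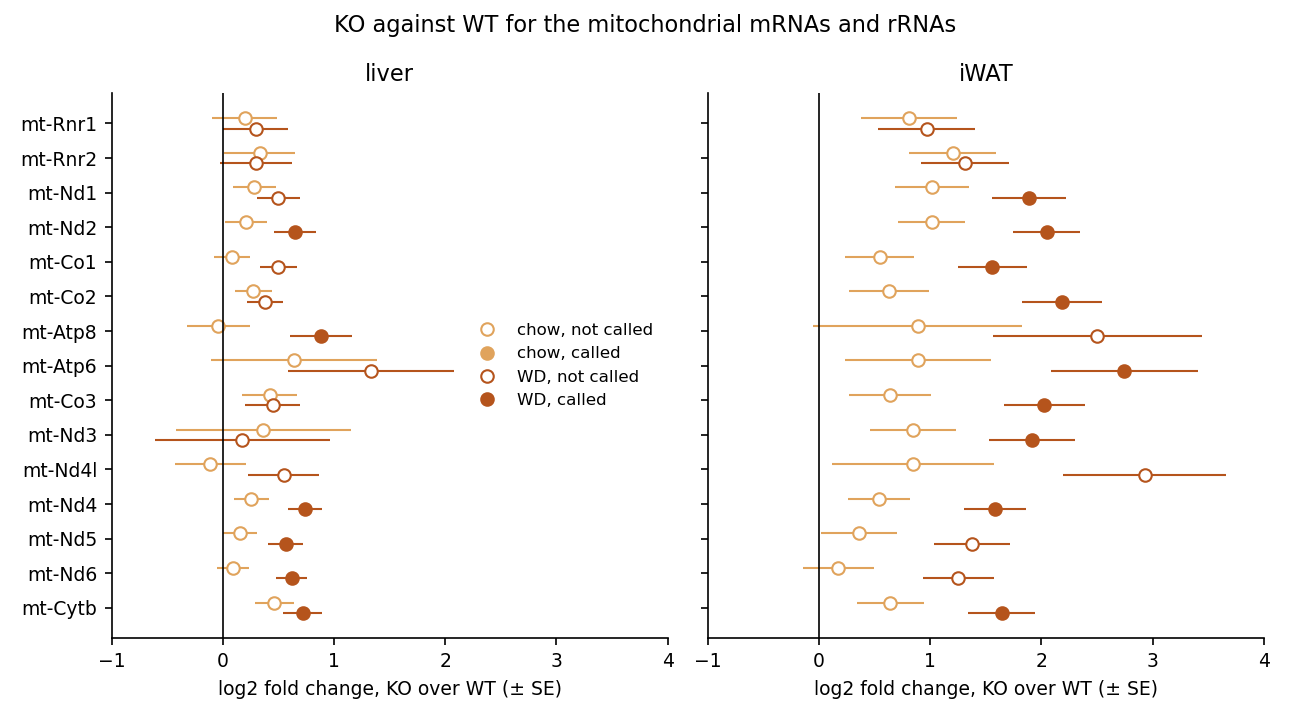
Log2 fold change of KO over WT ± SE (x, limma on log2(FPKM + 1)) for the 13 mRNAs and 2 rRNAs in genome order (y), in liver (left) and iWAT (right); light symbols are chow, dark symbols WD, and filled symbols passed an adjusted p of 0.05. In iWAT on WD all lie between 0.97 and 2.93 with 9 filled, and in liver on WD 6 are filled.

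Some proportions among the mitochondrial transcripts of iWAT also lay apart between KO and WT. Such ratios within a library do not depend on the scaling between libraries. Relative to mt-Co1, mt-Nd1 stood at 56.2%, 54.7% and 51.1% in KO chow and 40.4%, 39.1% and 37.3% in WT chow. On WD it stood at 59.6%, 59.1% and 58.3% in KO and 50.3%, 50.7% and 40.8% in WT. The same order held for mt-Nd2, at 30.2% to 39.5% in the 6 KO libraries and 22.2% to 29.5% in the 6 WT libraries. On chow it also held for mt-Rnr2, at 3.69%, 2.81% and 2.69% in KO and 1.86%, 1.78% and 2.13% in WT. For mt-Cytb, mt-Nd4 and mt-Nd5 the genotypes overlapped on either diet. The ratio of mt-Nd1 to mt-Nd5, a pair chosen after its values were seen, was 2.74, 2.19 and 2.94 in KO chow and 1.66, 1.51 and 1.81 in WT chow. On WD it was 2.55, 2.87 and 2.46 in KO and 1.89, 1.86 and 1.76 in WT. In liver this ratio overlapped between the genotypes on either diet (1.31 to 2.41 over all 12 livers). There mt-Cytb relative to mt-Co1 was higher in each KO library, at 49.0%, 56.9% and 68.7% against 42.7%, 41.6% and 48.9% on chow and 58.5%, 61.2% and 57.3% against 50.3%, 46.2% and 55.9% on WD. In WD liver mt-Nd4 relative to mt-Co1 also lay higher in each KO library, at 18.0%, 20.3% and 17.6% against 15.9%, 14.1% and 17.4%. Ratios to mt-Co1 were formed for both rRNAs and for the other mRNAs not inside the copied stretch, and most overlapped between the genotypes. Since mt-Co1 and mt-Nd4 lie partly in that stretch, ratios with them also depend on how reads that fit both sites were counted. No test was run on these ratios.

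**Figure D4:**
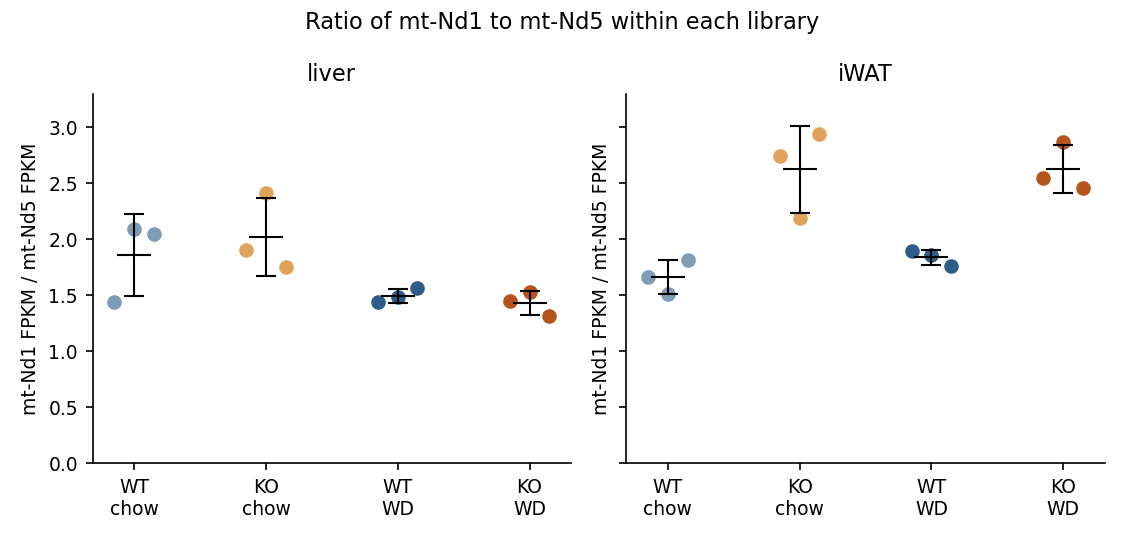
FPKM of mt-Nd1 divided by FPKM of mt-Nd5 within each library (y) by group (x), in liver (left) and iWAT (right); points are libraries, bars the mean ± SD of 3. In iWAT the 6 KO libraries (2.19 to 2.94) lie above the 6 WT libraries (1.51 to 1.89), and in liver the genotypes overlap.

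In livers on WD, 7 members were called higher in those labelled KO: mt-Nd2, mt-Nd4, mt-Nd5, mt-Nd6, mt-Cytb, mt-Atp8 and mt-Tp. Over all genes 10.6% were called higher. The median over the 32 members was 0.55, against 0.07 over all genes. Each library labelled KO was above each labelled WT for 11 of the 32 members, against 25.4% of all genes. For mt-Nd4 the libraries stood at 2200, 2452 and 2523 FPKM in KO and 1258, 1546 and 1507 FPKM in WT (0.74 ± 0.16, limma adjusted p = 0.00977). For mt-Cytb they stood at 7151, 7395 and 8225 against 3980, 5070 and 4840 FPKM (0.72 ± 0.17, limma adjusted p = 0.0173). The called mRNAs mt-Nd2, mt-Nd5 and mt-Nd6 had log2 fold changes of 0.65 ± 0.19, 0.56 ± 0.16 and 0.62 ± 0.14, and mt-Atp8 0.88 ± 0.28 (limma adjusted p = 0.0494). The mt-Atp8 call rests on few reads: 22, 14 and 14 in KO and 7, 16 and 8 in WT. The proline tRNA mt-Tp was at 1616, 1799 and 2006 FPKM in KO and 533, 1197 and 742 FPKM in WT (1.21 ± 0.25, limma adjusted p = 0.00956).

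Of the members not called in this comparison, mt-Co1, mt-Nd1, mt-Rnr1 and mt-Tw had groups that did not overlap. Their values were 0.50 ± 0.16 for mt-Co1 (limma adjusted p = 0.0538), 0.50 ± 0.19 for mt-Nd1 (0.0964), 0.29 ± 0.29 for mt-Rnr1 (0.521) and 0.67 ± 0.40 for mt-Tw (0.273). The other rRNA, mt-Rnr2, was at 0.30 ± 0.32. The mRNAs inside the copied stretch other than mt-Atp8 ranged from 0.17 ± 0.79 (mt-Nd3) to 1.33 ± 0.75 (mt-Atp6). The deposited FPKM carry a scaling factor per library that was 1.02 on average in WT WD livers and 0.816 in KO WD livers. With FPKM rescaled to the library totals only mt-Tp was called (0.88 on the log2 scale, limma adjusted p = 0.0218), with mt-Nd4 at 0.41 (0.0662) and mt-Cytb at 0.39 (0.0961). In that scaling the median of all genes moved from 0.07 to -0.17, and calls over all genes went from 1490 higher and 1453 lower to 337 and 3029. Relative to these medians the members' median was 0.55 against 0.07 before and 0.23 against -0.17 after. With quantile normalization 1 member was called, 18 of the 32 were above 0, and the members' median was 0.069 against 0.073 over all genes. Without 1 library, 3 to 8 members were called, with 3 without WT WD replicate 1 or KO WD replicate 3, and 4 without WT WD replicate 3 or KO WD replicate 1. Without the livers high in muscle genes, KO WD replicate 2 among them, 4 were called. Without the livers high in acinar genes 8 were called.

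Macrophage markers moved with these groups. They summed to 190 to 247 FPKM in livers labelled KO and 504 to 1406 FPKM in those labelled WT on WD. Of the 8, 7 were called lower in KO, beside 1453 of the 14019 genes tested. They were led by Gpnmb (-4.26 ± 0.33) and Trem2 (-2.52 ± 0.29), both genes of lipid-laden macrophages. Of 8 hepatocyte markers 5 were called higher in KO, beside 10.6% of all genes, among them Ttr, which carries thyroid hormone in blood (0.80 ± 0.17). The hepatocyte markers summed to 28951 to 37912 FPKM in KO and 23638 to 31612 in WT. The lymphocyte markers summed to 1.45 to 2.95 FPKM in KO and 10.2 to 15.1 in WT. No macrophage, lymphocyte or hepatocyte marker was at 0 throughout any of these groups. Their part in the mitochondrial values was not tested.

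WD against chow in WT liver called 4 of the 32 members lower on WD: mt-Nd2, mt-Nd4, mt-Nd6 and mt-Tp. This share is not far from the 9.49% of all genes called lower. The median over the members was -0.28, with 14 of the 32 above 0, where the median of all genes was -0.05. With FPKM rescaled to library totals the members' median was 0.059, and with quantile normalization 0.087, so the direction of the members as a whole turned with the scaling. For mt-Nd4 the libraries stood at 1258, 1546 and 1507 FPKM on WD and 2135, 2187 and 2759 FPKM on chow, and it fell by 0.71 ± 0.16 on the log2 scale (limma adjusted p = 0.0117). For mt-Tp they stood at 533, 1197 and 742 against 1921, 2220 and 2125 FPKM (fell by 1.42 ± 0.25, limma adjusted p = 0.00517). The complex I mRNAs mt-Nd2 and mt-Nd6 fell by 0.75 ± 0.19 and 0.55 ± 0.14, and mt-Co1 and mt-Nd1 missed the threshold at -0.49 ± 0.16 and -0.57 ± 0.19. This comparison shares the WT WD livers with KO against WT on WD, so the values in both rest on the same 3 libraries. Rescaled to library totals, mt-Tp alone was called (limma adjusted p = 0.00795), the median of all genes moved from -0.05 to 0.20, and calls over all genes went from 1363 higher and 1330 lower to 3623 and 345. Fitted on the 6 libraries compared, no member was called. Called members numbered 7 without WT chow replicate 2, 2 without WT chow replicate 3 or WT WD replicate 1, 1 without the livers high in muscle genes and 5 without those high in acinar genes. Cell type markers moved with these groups as well. Of 8 hepatocyte markers 7 were called lower on WD (median -1.05), beside 9.49% of all genes. Of 8 macrophage markers 7 were called higher (median 2.05), beside 1363 of the 14019 genes tested. Their part in these values was not tested.

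In the remaining liver comparisons little passed. On chow no member was called between KO and WT, and no gene at all (0% of 14019; 675 had an unadjusted p under 0.05, edgeR called 0 and DESeq2 16). The median over the members was 0.29, and in none did all KO libraries lie above all WT libraries, against 4.59% of all genes. The smallest unadjusted p among the mRNAs, 0.0239, was that of mt-Cytb, at 6277, 8796 and 8509 FPKM in KO and 5770, 4852 and 6423 in WT (0.46 ± 0.17). WD against chow in KO liver called no member (0.421% of all genes), with a median of -0.004. The rRNAs were at -0.54 ± 0.29 (mt-Rnr1) and -0.53 ± 0.32 (mt-Rnr2). The interaction term called no member (0.549% of all genes), and its largest value among the mRNAs with an unadjusted p under 0.05 was mt-Atp8 (0.92 ± 0.40). Averaged over the diets, mt-Nd4, mt-Nd6, mt-Cytb and mt-Tp were called higher in KO liver (0.50 ± 0.11, 0.35 ± 0.10, 0.59 ± 0.12 and 0.63 ± 0.18), against 6.85% of all genes called higher, and 2 to 6 members were called without 1 library and 6 without the livers high in acinar genes. In iWAT, WD against chow called no member in WT (2.12% of all genes; median -0.42) and none in KO (0% of all genes; 1390 had an unadjusted p under 0.05, DESeq2 called 175 and edgeR 0; median 0.68). All 13 mRNAs were below 0 in WT, from -0.15 (mt-Atp8) to -0.87 (mt-Co3), and above 0 in KO, from 0.47 to 1.71.

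Single libraries stood apart in some mRNAs of the copied stretch. For mt-Atp6, KO WD liver 3 held 375 FPKM (3002 reads) against 42.5 and 51.0 FPKM in the other 2 of its group, and KO chow liver 2 held 189 FPKM against 54.2 and 55.0. In iWAT, KO WD replicate 2 held 455 FPKM of mt-Atp6, 129 FPKM of mt-Atp8 and 430 FPKM of mt-Nd4l, where replicate 1, with the higher mitochondrial share, held 165, 12 and 131 FPKM. The mt-Co1 pseudogene Gm29216 was highest in the same library, at 106 FPKM, against 11.9 to 51.0 FPKM in the other 11. Without the 3 libraries named here, 2 members were called in WD liver and 1 in WD iWAT, and mt-Atp6 in WD liver had a log2 fold change of 0.34. This alternative was chosen after the values were seen.

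**Figure D5:**
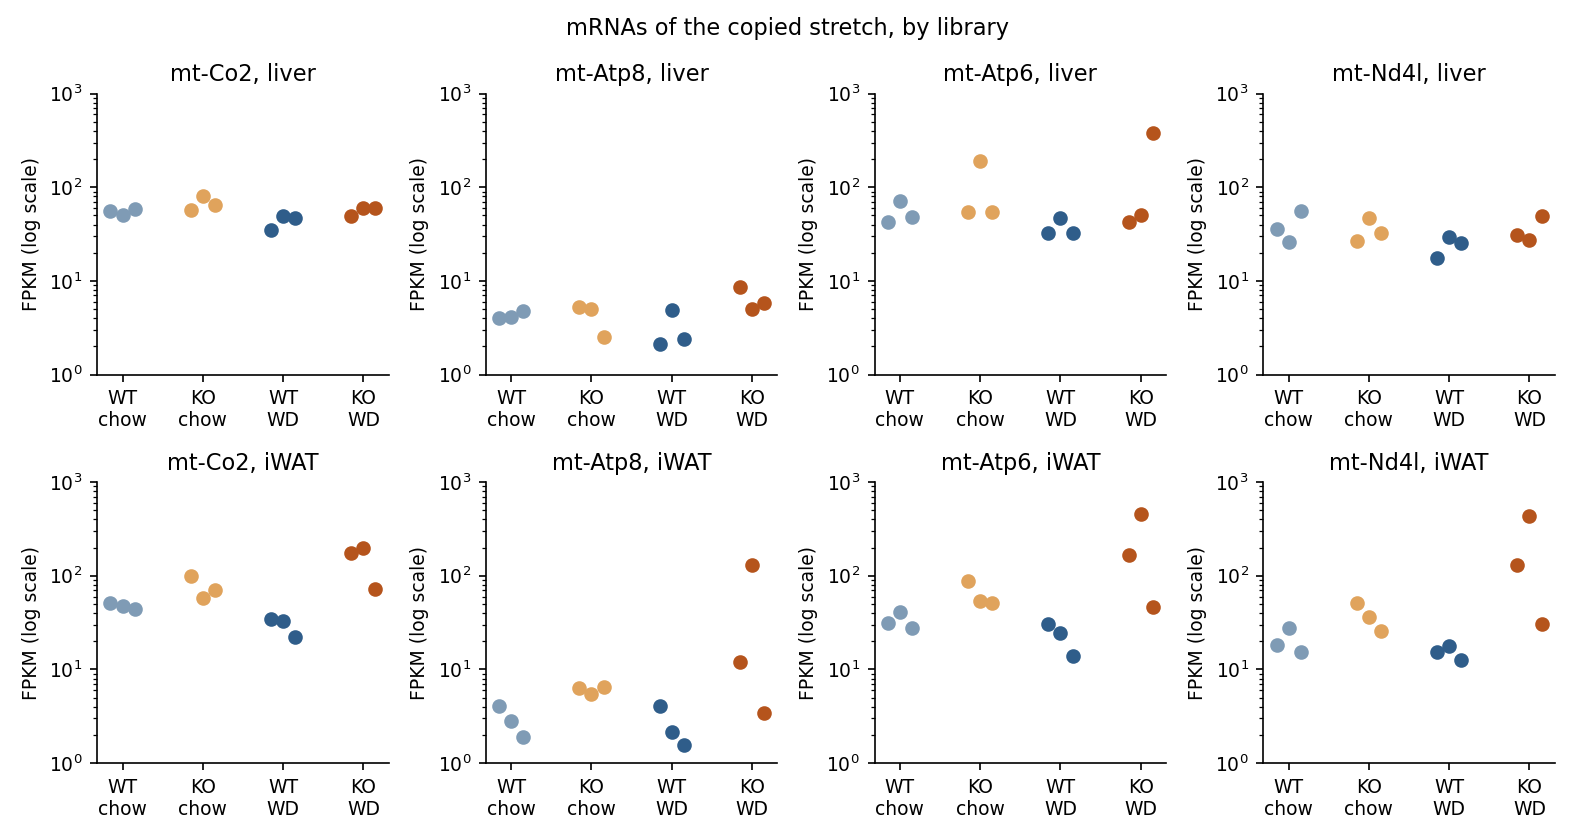
FPKM on a log axis (y) by group (x) for 4 mRNAs inside the copied stretch, liver above and iWAT below; each point is a library. Single KO libraries stand apart in mt-Atp6 (375 FPKM in liver, 455 in iWAT), mt-Atp8 (129) and mt-Nd4l (430), while mt-Co2 shows no such point.

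The pseudogene rows followed their mitochondrial partners in WD iWAT. Of the 7, 6 were called higher in KO, from 1.69 ± 0.33 (Gm10222) to 2.04 ± 0.35 (Gm28437), and Gm28438 was not (1.2 ± 0.62). In WD liver Gm28439 and Gm10925 were called higher (0.90 ± 0.17 and 0.66 ± 0.15). Reads of the 2 sites cannot be told apart where the sequences shown above are identical, so these values give no separate account of nuclear copies.

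Nuclear genes for the respiratory chain and ATP synthase were also called higher in KO on WD. On chow, 0 of the 78 tested were called between KO and WT in either tissue, where 0% of all genes were called. Their median on chow was 0.13 in liver, with 73 of 78 above 0, and 0.43 in iWAT, with 76 of 78 above 0. In WD iWAT 44 of the 78 nuclear respiratory chain and ATP synthase genes tested were called higher in KO and none lower, with a median of 0.72, where 3.20% of all genes were called higher. Without KO WD replicate 1, without KO WD replicate 2 or with only the libraries compared, 17, 16 and 16 genes of the whole table were called over both directions. By complex, the counts were 18 of 36 for complex I (such as Ndufa10, 1.09 ± 0.19), 4 of 4 for complex II (Sdhb, 1.09 ± 0.25), 8 of 9 for complex III (Uqcrfs1, 1.29 ± 0.23), 8 of 14 for complex IV (Cox5a, 1.06 ± 0.18) and 6 of 15 for complex V (Atp5b, 0.96 ± 0.20). Cox8b, a complex IV subunit of muscle and brown fat that is also 1 of the brown and beige markers above, rose by 3.37 ± 0.63. In WD liver 33 of 78 were called higher in KO, beside 10.6% of all genes, with a median of 0.31, among them Ndufs6 (0.47 ± 0.10) and Cox5a (0.56 ± 0.12). In WT liver 55 of 78 were called lower on WD, beside 9.49% of all genes, with a median of -0.43. Both liver counts were taken in the deposited scaling only. With FPKM rescaled to library totals, all genes called higher in KO WD liver went from 1490 to 337. Those called lower on WD in WT liver went from 1330 to 345.

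The genes that copy, read and process the mitochondrial genome were counted by list, to be read beside the 3.20% of all genes called higher in WD iWAT. There, Suclg1, a subunit of the matrix enzyme succinyl-CoA synthetase, was the 1 of 15 genes for copying and packaging of mitochondrial DNA that rose (1.13 ± 0.24), and Tfam and Polg were not called. Of 10 transcription genes 2 rose: Polrmt, the mitochondrial RNA polymerase (0.36 ± 0.08), and Mrpl12, a ribosomal protein (0.76 ± 0.16). None of 18 RNA processing and modification genes was called. Of 17 genes for RNA stability, tailing and decay 6 rose, among them Ptcd3 (0.73 ± 0.14), Tbrg4 (0.62 ± 0.13), Ptcd2 (0.61 ± 0.14) and Fastkd1 (0.48 ± 0.11), all RNA-binding proteins of mitochondria. Of 14 regulators of mitochondrial biogenesis 3 rose: the coactivator Ppargc1b (1.26 ± 0.21) and the nuclear receptors Ppara (1.94 ± 0.39) and Esrra (0.67 ± 0.16).

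In WD liver the genes called in these lists were higher in those labelled KO, 2 or 3 in each list, to be read beside the 10.6% of all genes called higher there. They were Polg, Tfam and Polg2 of 14 copying genes (0.38 ± 0.08, 0.42 ± 0.09 and 0.50 ± 0.14) and Tfb2m and Polrmt of 10 transcription genes (0.60 ± 0.13 and 0.38 ± 0.12). Among 18 processing genes they were Nsun2, Nsun4 and Trit1, which modify RNA bases (0.38 to 0.42). Among 17 stability genes they were Lrpprc, which holds mitochondrial mRNAs stable and tailed (0.57 ± 0.09), Grsf1 (0.59 ± 0.14) and Ptcd3 (0.40 ± 0.11). Of 15 regulators they were the deacetylase Sirt3 (0.56 ± 0.13) and the nuclear receptor Esrrg (0.50 ± 0.15). These calls too were counted in the deposited scaling only.

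The authors' deposited tables, which list genes with an unadjusted p under 0.05, held 31 of the 37 members for KO against WT in WD iWAT, 27 of them with an adjusted p under 0.05. They held 26 members in chow iWAT (5 with an adjusted p under 0.05), 11 in WD liver (8) and 2 in chow liver (0), and all listed values in the authors' deposited tables were higher in KO. For mt-Nd2 the authors' deposited tables give log2 fold changes of 2.12 in WD iWAT, 1.001 in chow iWAT and 0.60 in WD liver. The chow iWAT value has an adjusted p of 0.00228 in the authors' deposited table, below the threshold that the limma value missed (0.752).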

How the data were processed

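Per the submitters' processing notes HISAT2 2.0.5, DESeq2 1.20.0 and mm10 were used, with no roles given; no source used here names the read counter or strandedness. The authors deposited FPKM per gene and library, per the file headers. For each KO to WT comparison, a table by the authors has read counts, log2 fold changes (positive: higher in KO, by DESeq2 per the deposited readme) and p-values for genes with an unadjusted p under 0.05. A further 32 columns of normalized counts were not used. FPKM times gene length and 1 constant per library gave whole reads within 0.01 for all 540911 values above 0 (100%), and all 64434 deposited counts equalled them. That constant is not the library total: effective size was 0.769 to 1.07 times the reads in liver and 1.24 to 1.60 times in iWAT, so FPKM of the tissues are set side by side and not tested.

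Tissues were fitted apart, 4 groups together, with limma 3.58.1 in R 4.3.3 on log2(FPKM + 1), trend and robust prior, for genes with a mean of at least 0.5 FPKM. P-values were adjusted by Benjamini-Hochberg over all genes tested (14019 in liver, 14685 in iWAT). Fold changes of low genes are understated by the pseudocount. Alternatives were edgeR 4.0.16 and DESeq2 1.42.0 on recovered reads, pseudocount 0.1, no filter or a mean of 5 FPKM, 3 other scalings, the compared libraries alone, a replicate block and left-out libraries. The limma and edgeR fits were also run on simulated data with the same dispersion for all genes and no single libraries that stood apart. That run does not show how the fits act on the real libraries that did. As a pairing check, deviations from the group means were correlated between equal replicate numbers; 1 comparison, KO to WT in chow iWAT, exceeded 0.1 in all 3 pairs (r = 0.184, 0.127 and 0.407 across genes), where the block called no member either. Coordinates and sequences were read from GENCODE vM21 (GRCm38), where all 37 members and 7 pseudogenes had the deposited coordinates.

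Members, lists and alternatives were chosen with earlier results of these data known. Named are all mRNAs and rRNAs, tRNAs called in the tissue or among its 4 highest, up to 4 called genes of each nuclear list with the smallest p (for each complex 1 or 2 of these), Mrs2 and the pseudogenes. The limma p-values rest on the spread between mice within groups of 3, pooled over the 4 groups of a tissue and drawn towards a trend over all genes. They do not measure the spread of the 2 groups compared alone. Python 3.11.15, pandas 2.3.3, numpy 2.4.6, scipy 1.17.1 and matplotlib 3.10.9 made tables and plots.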

Additional observations from a re-analysis of the deposited data

How the results depend on the processing

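Calls rest on 3 mice per group, and those of mt-Atp8 and several tRNAs on few reads. Counts of members called by limma are given here as the main count and then the count under each alternative that moved it by over 1.5 times, and the cause of such moves was not tested. For KO against WT in WD liver (7), the counts were 1 scaled to library total, 1 with quantile normalization, 4 with edgeR, 4 with only the libraries compared, 4 without the libraries high in muscle genes, 2 without those high in mt-Atp6, and 3 to 8 leaving out 1 library. For WD against chow in WT liver (4), they were 1 scaled to library total, 1 with quantile normalization, 0 with only the libraries compared, 1 without the muscle-high libraries and 2 to 7 leaving out 1 library. For the liver averaged over diets (4), they were 2 without a filter, 1 scaled to library total, 0 with quantile normalization, 7 with DESeq2, 2 without the muscle-high libraries, 0 without those high in mt-Atp6 and 2 to 6 leaving out 1 library. The liver interaction (0) had 0 to 1 leaving out 1 library, with 1 without WT WD replicate 2. For KO against WT in WD iWAT (19), they were 8 without a filter, 29 with DESeq2, 0 with only the libraries compared, 1 without the muscle-high libraries, 0 without those high in lymphocyte genes, 1 without that high in mt-Atp6 and 1 to 28 leaving out 1 library. For iWAT averaged over diets (17), they were 7, 30, 1, 0 and 4 under the same alternatives other than only the libraries compared, and 4 to 27 leaving out 1 library, with 4 without KO chow replicate 1 or KO WD replicate 2 and 27 without KO WD replicate 3. DESeq2 called 2 members in chow iWAT (0) and 1 for WD against chow in KO iWAT (0), where leaving out 1 library gave 0 to 1. For WD against chow in WT iWAT (0), only the libraries compared gave 1.

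With the replicate block, the counts were 6 in WD liver, 5 for WD against chow in WT liver, 3 averaged over diets in liver, 24 in WD iWAT, 25 averaged over diets in iWAT, 0 in chow iWAT and 1 for WD against chow in WT iWAT. The labels do not pair the replicate numbers, and with 3 libraries per group the correlations given above cannot settle whether they pair the samples. Without the 20 other genes with the most reads, the mitochondrial read share was 4.82% in WT chow liver, 5.26% in KO chow liver, 4.17% in WT WD liver, 4.94% in KO WD liver, 4.92% in WT chow iWAT and 7.21% in KO chow iWAT, and it moved by less than 1 SD in the WD iWAT groups. Of the member values called by limma, 4 changed sign, all with quantile normalization in liver: mt-Nd5 (-0.25) and mt-Nd6 (-0.060) for KO against WT on WD, mt-Nd6 for WD against chow in WT (0.058) and mt-Nd6 averaged over diets (-0.037). Values of members not called changed sign as well. For KO against WT in WD liver, mt-Nd1 went down to -0.13 and mt-Nd3 to -0.34 among the alternatives. The alternative without libraries high in mt-Atp6 and those leaving out 1 library for the read share were chosen after the data were seen.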
